A study of Bos taurus with 11 samples.

Results

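The genes described here are those that fill the cavity of the blastocyst with fluid. The list holds 6 genes chosen by name, the sodium pump beta subunits ATP1B1, ATP1B2 and ATP1B3 and the water channels AQP3, AQP7 and AQP11, out of 12056 transcripts listed in either of 2 deposited tables. Of the 6 genes, 4 were matched in the table that holds the GATA3 KO embryos (the GATA3 table, with 8576 transcripts) and 5 in the table that holds the CDX2 KO embryos (the CDX2 table, with 12047). ATP1B1 was not matched under its RefSeq accession in either table and is not analysed here, though it could stand among the transcripts left without a symbol, and AQP7 was matched only in the CDX2 table. A mean of at least 10 normalized counts, the level needed to enter the test across all transcripts, was reached by ATP1B3 and AQP3 in the GATA3 table, and by ATP1B2, ATP1B3, AQP3 and AQP11 in the CDX2 table.

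The sodium pump (Na+/K+-ATPase) lies in the basolateral membrane of the trophectoderm (TE), the outer epithelium of the blastocyst. It moves sodium inward at the cost of ATP, and water follows through aquaporins while tight junctions between the cells hold the fluid in. Each pump pairs a catalytic alpha subunit with a glycosylated beta subunit, which the alpha subunit needs to leave the endoplasmic reticulum (ER) and reach the membrane. AQP3 and AQP7 are aquaglyceroporins, which pass glycerol as well as water, and AQP11 is an unusual aquaporin found mostly in the membranes of the ER.

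Single bovine blastocysts, produced in vitro and collected on day 7 after fertilization, gave 3 WT control, 4 GATA3 KO and 4 CDX2 KO libraries. All embryos, controls included, had received mRNA of the cytosine base editor BE3 as zygotes, and KO embryos had also received a mixture of guide RNAs that create premature stop codons in GATA3 or CDX2, both TE transcription factors. The study checked base editing in its RNA-seq embryos by Sanger sequencing of cDNA. The edits of each embryo are not analysed here, and a KO embryo may hold cells with different edits. The same 3 WT control embryos stand in both tables, which were each normalized on their own, so values are compared only within a table and the comparisons of the 2 knockouts are not independent. Whether embryos of a group came from separate fertilizations is not given in the sources used here, so p-values measure the spread between these embryos.

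The targeted transcripts were lower in the embryos labelled as their knockouts, whereas the study saw no obvious change in either. In GATA3 KO embryos GATA3 fell by 2.62 on the log2 scale (limma, adjusted p = 7.64e-05), with all 4 below the 3 WT control embryos. CDX2 was a low transcript, at 8.94 ± 2.09 (SD, n = 3) normalized counts in WT control and 3.57 ± 1.34 (n = 4) in CDX2 KO embryos, and all 4 lay below the controls (exact permutation of the 35 splits of 7 embryos, two-sided, p = 0.029, which is the smallest it can give). CDX2 was also below every control in all 4 GATA3 KO embryos, at 2.20 against 7.16 normalized counts (log2 difference -1.50, two-sided exact permutation test, p = 0.057). Its log2 difference in CDX2 KO embryos was -1.16, so lower CDX2 was not particular to embryos labelled CDX2 KO. Recovered reads per embryo numbered 150057 to 540775 (GATA3 table) and 100731 to 662962 (CDX2 table), and the shallowest library was CDX2 KO embryo 3. Of 13 listed TE markers 11 were matched in the first table and 12 in the second. The keratins KRT8 and KRT18 had the most reads of them, while CDX2, EOMES, TFAP2A and ELF3 were low, with CDX2 at 0 in GATA3 KO embryo 5 and EOMES at 0 in CDX2 KO embryos 2, 3 and 5. Y-linked reads numbered 29 to 98 in WT control embryos, and 0, 0, 2 and 68 in GATA3 KO embryos 3 to 6. In the CDX2 table they numbered 46 to 149 in the controls and 0, 0, 0 and 155 in CDX2 KO embryos 2 to 5, so the groups also differ in how many embryos carry such reads. The part of this in the results below was examined only with a Y-linked term in the model, which marks embryos with 3 or more such reads. All controls carry that mark, but only a single KO embryo per table does, GATA3 KO embryo 6 or CDX2 KO embryo 5. Under that term the knockout difference is that KO embryo against the controls, so the term cannot separate Y-linked reads from the knockout.

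None of the pump and aquaporin genes passed the test in either knockout. To be called, a transcript needed a Benjamini-Hochberg adjusted p no higher than 0.05 in limma and a fold change that reached 1.5 upward or 0.6 downward. In GATA3 KO embryos 0 of 2 genes tested were called, where 2.01% of all 4271 transcripts tested were, 66 of them higher and 20 lower. That split moved with the scaling, to 56 higher and 52 lower with median-ratio rescaling, 48 and 57 with quantile normalization, 57 and 69 by edgeR and 76 and 82 by DESeq2. The total of 86 fell to 1 without KO embryo 3 or without WT control embryo 2, and was 304 without WT control embryo 1. It was 20, 25 and 45 without WT control embryo 3, KO embryo 4 and KO embryo 5, and 187 without KO embryo 6. For CDX2 KO embryos 0 of 4 were called, where the share of all 5719 transcripts was 0%. In this limma fit 0 of these genes had an unadjusted p under 0.05 in either table, beside 965 of all 4271 and 187 of all 5719 transcripts. By edgeR and DESeq2 on the recovered reads 0 were called as well. Of all transcripts edgeR called 126 and DESeq2 158 in GATA3 KO embryos, and 1 and 9 in CDX2 KO embryos. At an unadjusted p under 0.05 both tools had 0 of 2 in GATA3 KO embryos, beside 903 of all transcripts by edgeR and 748 by DESeq2. In CDX2 KO embryos both had 1 of 4, AQP3, beside 261 of all transcripts by edgeR and 301 by DESeq2. WT control and KO embryos overlapped for each gene, while 18.9% of all transcripts tested did not overlap between the groups in the GATA3 table and 5.88% in the CDX2 table.

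**Figure D1:**
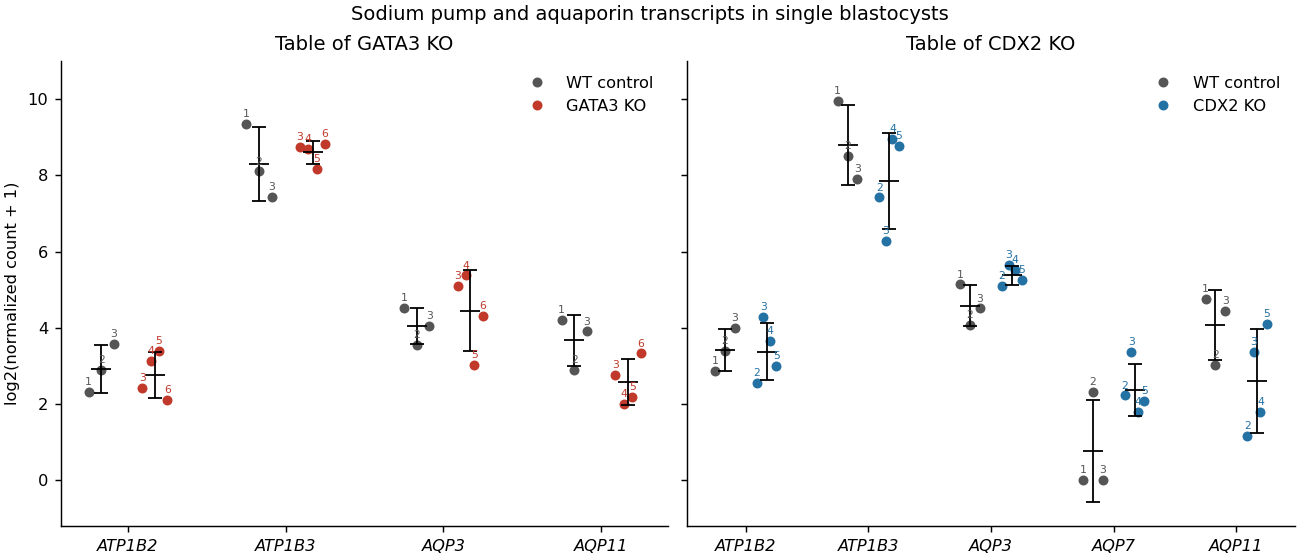
Each point is an embryo, with its number beside it, and the vertical axis is log2(normalized count + 1); black bars give the mean ± SD of the group. ATP1B3 has the highest counts, and the WT control and KO points of each gene overlap.

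ATP1B3, a beta subunit with broad expression, gave the most reads of these genes in every embryo, though reads are not corrected for transcript length and do not rank the genes by expression. It had 649, 274 and 173 normalized counts in WT control embryos 1 to 3 of the GATA3 table. GATA3 KO embryos 3 to 6 had 431, 413, 287 and 451. The 4 KO embryos lay close together, all inside the range of the controls. The highest KO embryo was 1.57 times the lowest, whereas the highest control was 3.76 times the lowest. The difference was 0.31 ± 0.33 on the log2 scale (the error of such differences is the SE; 95% interval -0.39 to 1.01; limma, adjusted p = 0.604), smaller than the spread between controls. Its sign rested on a single control, since without WT control embryo 3 the difference was -0.12 (adjusted p = 0.871). Without WT control embryo 1 it was 0.84 (adjusted p = 0.059), which still missed the threshold. It was 0.024 by edgeR, 0.021 by DESeq2 and 0.21 with median-ratio rescaling (adjusted p = 0.970, 0.978 and 0.732), and 0.52 with a Y-linked term.

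For ATP1B3 the CDX2 table gave 995, 364 and 241 normalized counts in the same controls. CDX2 KO embryos 2 to 5 had 170, 76.9, 497 and 438. KO embryos 2 and 3 lay below every control, and embryos 4 and 5 lay inside the controls' range. The difference was -0.94 ± 0.66 (95% interval -2.36 to 0.49; limma, adjusted p = 0.900). Leaving out CDX2 KO embryo 3 brought it to -0.41, and leaving out WT control embryo 1 to -0.35. With a term for Y-linked reads it was -0.020, and with quantile normalization -0.55.

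The spread of ATP1B3 among embryos was wide. Its residual SD was 0.65 on the log2 scale in the GATA3 table, higher than for 84.5% of transcripts tested, and 1.18 in the CDX2 table, higher than for 90.3%. In the CDX2 table the shallowest library, KO embryo 3 with 100731 reads, was the lowest, and KO embryo 2 with 218797 reads was next. The deepest library, KO embryo 5 with 662962 reads, was not the highest and lay below KO embryo 4 and WT control embryo 1. The summed TE markers moved alongside as well, at 12647, 8941 and 5059 normalized counts in the controls and 4171, 2533, 8575 and 6933 in CDX2 KO embryos 2 to 5. Most of that sum was KRT8 and KRT18, so values per 1000 counts of it are mainly ratios to these keratins. Per 1000 normalized counts of TE markers, ATP1B3 stood at 78.7, 40.7 and 47.6 in the controls. The CDX2 KO embryos had 40.8, 30.4, 57.9 and 63.1 per 1000, so that a single KO embryo, number 3, remained below every control. The controls of the GATA3 table had 79.3, 42.2 and 47.8 per 1000 and the KO embryos 76.4, 104, 59.7 and 100.04. The part of depth and of TE content in the ATP1B3 values was not tested. In whole blastocysts, fewer TE cells and less RNA per TE cell cannot be told apart. The study described TE cell numbers as normal in both knockouts, counted in other embryos at a later day.

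ATP1B2, a beta subunit also known as an adhesion molecule of glia, was close to the detection limit. The controls of the GATA3 table had 3.95, 6.48 and 10.9 normalized counts, made of 5 to 7 reads. The KO embryos had 4.34, 7.75, 9.53 and 3.28, made of 3 to 18 reads. The groups overlapped throughout (log2 difference -0.17; two-sided exact permutation test, p = 0.771). Control embryos of the CDX2 table had 6.34, 9.48 and 14.9 normalized counts and the KO embryos 4.90, 18.6, 11.6 and 6.98. The difference of -0.042 ± 0.65 (95% interval -1.44 to 1.35; limma, adjusted p = 0.992) does not exclude a 2-fold change in either direction. The detection floor, taken as 3 reads, lay between 1.29 and 4.66 normalized counts in the first table and between 1.61 and 6.99 in the second. It covers counting error only, because Smart-seq2 reads carry no molecular identifiers.

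AQP3 gave more reads than AQP11 and AQP7 in every embryo. Its levels in the GATA3 table were 22.1, 10.8 and 15.5 normalized counts in the controls and 33.3, 40.5, 7.15 and 18.9 in KO embryos 3 to 6. KO embryos 3 and 4 were above every control, and embryo 5 was below. The difference was 0.41 ± 0.46 on the log2 scale (95% interval -0.55 to 1.37; limma, adjusted p = 0.624). It was 0.10, 0.19 and 0.16 without KO embryo 4, KO embryo 3 and WT control embryo 2, and 0.27 with a Y-linked term. Without WT control embryo 1 it was 0.65, and without KO embryo 5 it was 0.88 (limma, unadjusted p = 0.029, adjusted p = 0.203). Among these embryos AQP3 varied more than 95.2% of transcripts tested, with a residual SD of 0.87.

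AQP3 in the CDX2 table stood at 34.3, 15.8 and 21.8 normalized counts in the controls. CDX2 KO embryos 2 to 5 had 33.1, 48.9, 44.8 and 37.0, made of 21 to 69 reads. Of the KO embryos 3 of 4 lay above every control, and embryo 2 lay just under WT control embryo 1. The mean was 41.0 ± 7.20 (n = 4) against 23.9 ± 9.42 (n = 3), a difference of 0.80 ± 0.40 on the log2 scale (95% interval -0.070 to 1.67). It did not pass (limma, unadjusted p = 0.068, adjusted p = 0.900; two-sided exact permutation test, p = 0.057). The unadjusted p was 0.042 by edgeR and 0.045 by DESeq2, with adjusted p-values of 0.986 and 0.998. By limma it was 0.032 with median-ratio rescaling, 0.029 with quantile normalization and 0.0385 without WT control embryo 1, with adjusted p-values of 0.929, 0.949 and 0.9985. The difference was smaller without WT control embryo 2 (0.55, limma, unadjusted p = 0.267) and with a Y-linked term (0.68). The unadjusted p by limma was 0.126 without KO embryo 4 and 0.140 without WT control embryo 3. The residual SD of AQP3 was 0.39, and KO embryo 3, the shallowest library, had the highest value. Per 1000 normalized counts of TE markers, a measure chosen after the values were seen and given with no test, AQP3 was at 2.71, 1.77 and 4.31 in the controls and at 7.93, 19.3, 5.22 and 5.34 in CDX2 KO embryos. On that measure all 4 KO embryos lay above the controls, while 5.74% of all transcripts tested did not overlap between the groups, and the TE markers themselves were low in KO embryos 2 and 3. In the GATA3 table the groups overlapped on that measure, with 2.70, 1.66 and 4.31 in the controls and 5.89, 10.2, 1.49 and 4.19 in KO embryos, of which embryo 5 lay below every control.

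**Figure D2:**
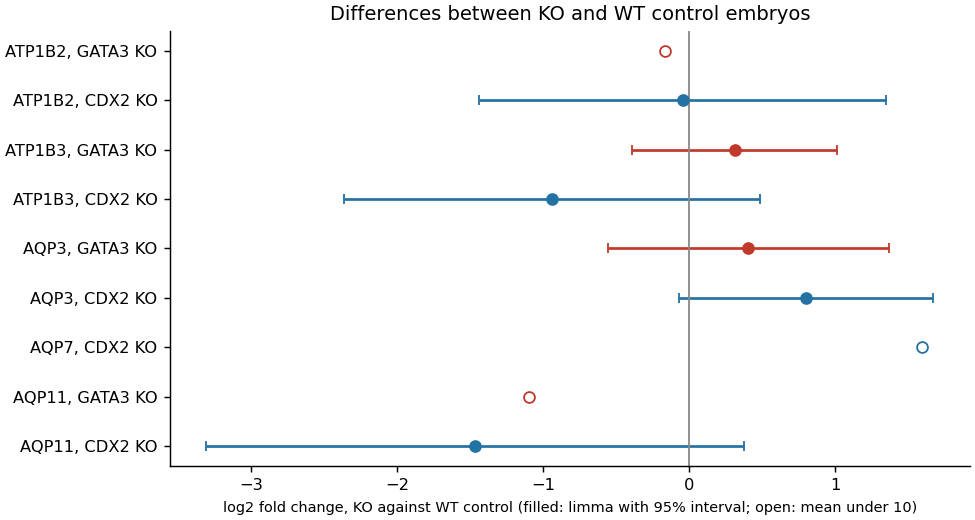
Log2 fold change of KO against WT control embryos for each gene, with 95% intervals from limma where the gene was tested (filled) and the difference of means alone where its mean was under 10 normalized counts (open). Every interval crosses 0, the nearest to it being AQP3 in CDX2 KO embryos at -0.070 to 1.67.

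AQP11 was lower on average in both knockouts but did not pass in either. The GATA3 table gave 17.4, 6.48 and 14.0 normalized counts in the controls and 5.79, 3.02, 3.57 and 9.03 in KO embryos 3 to 6. Of the KO embryos 3 of 4 lay below every control and embryo 6 lay above WT control embryo 2, and the 4 had 3 to 11 reads each. The log2 difference was -1.10 (two-sided exact permutation test, p = 0.114). With a mean under 10 it did not enter the test across all transcripts, and with no filter on low values limma gave an unadjusted p of 0.035 and an adjusted p of 0.201.

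AQP11 in the CDX2 table had 26.0, 7.11 and 20.6 normalized counts in the controls. The KO embryos had 1.23, 9.32, 2.49 and 16.1, and the first of these values is a single read. KO embryos 2 and 4 were below every control, and embryos 3 and 5 were inside the range. The difference was -1.46 ± 0.85 (95% interval -3.31 to 0.38; limma, adjusted p = 0.900; two-sided exact permutation test, p = 0.2). With a Y-linked term in the model it was 0.027, which sets KO embryo 5 alone against the controls. The KO embryo with Y-linked reads, number 5, also had the highest AQP11 value of the KO embryos, and so had GATA3 KO embryo 6 in its group. WT control embryo 2 had the most Y-linked reads of the controls and the lowest AQP11 value among them. The controls are the same embryos in both tables, and all of them carry such reads. The part of Y-linked reads in the AQP11 values was not tested.

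Within an embryo, AQP3 reads outnumbered AQP11 reads by more in each KO embryo than in any control of its table. This pair was picked out after the values were seen, so its ratios are a description with no test. Controls in the GATA3 table had 1.27, 1.67 and 1.11 AQP3 reads per AQP11 read, and the KO embryos 5.75, 13.4, 2 and 2.09. Controls in the CDX2 table had 1.32, 2.22 and 1.06 and the KO embryos 27, 5.25, 18 and 2.30. The groups did not overlap in either table, by a wide margin in some KO embryos and by a narrow one in others. Counting error alone covers part of the gap, as the exact 95% binomial interval was 0.43 to 12.4 in GATA3 KO embryo 5 against 0.55 to 5.58 in WT control embryo 2 of that table. It was 1.48 to 3.66 in CDX2 KO embryo 5 against 0.97 to 5.54 in WT control embryo 2 of the CDX2 table. Of the 6 pairs among the 4 genes of the GATA3 table, 2 did not overlap between the groups, ATP1B3 with AQP11 and AQP3 with AQP11. Of the 6 pairs among the 4 tested in the CDX2 table, AQP3 with AQP11 was the only such pair. Ratios to AQP11 failed to overlap for 33.0% of the transcripts whose ratio could be formed in the GATA3 table and for 3.52% in the CDX2 table, and ratios to AQP3 for 1.72% and 27.9%.

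**Figure D3:**
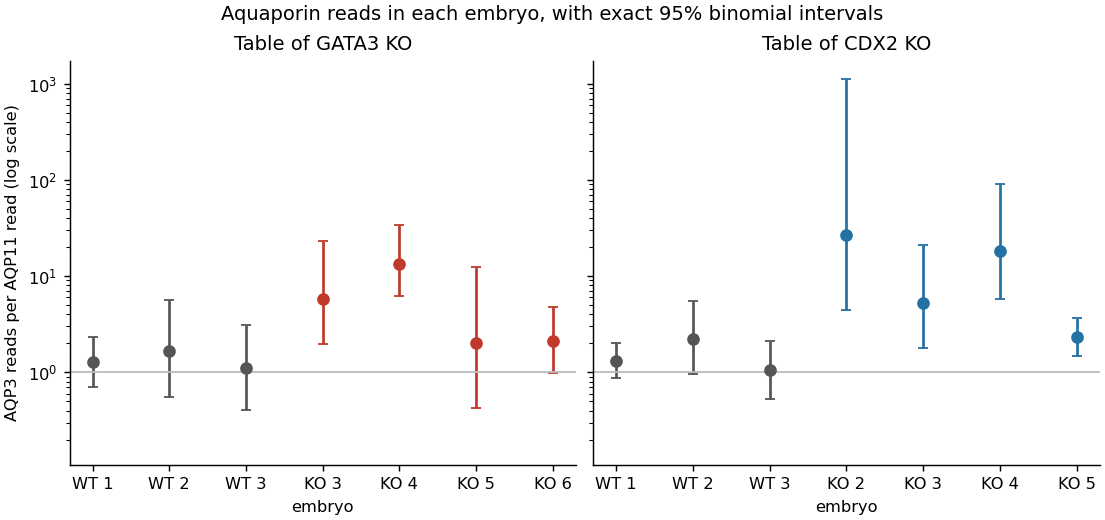
AQP3 reads per AQP11 read in each embryo, on a log axis, with exact 95% binomial intervals that cover counting error only. The WT control embryos lie at 1.11 to 1.67 and the KO embryos at 2 to 13.4 in the GATA3 table, against 1.06 to 2.22 and 2.30 to 27 in the CDX2 table, and the intervals of several embryos overlap.

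AQP7 was seen in a few reads only. The controls of the CDX2 table had 0, 5 and 0 reads and the KO embryos 3, 4, 3 and 6. In the controls with 0 reads the detection floor of 3 reads would be 1.90 and 3.44 normalized counts. The KO values were 3.68, 9.32, 2.49 and 3.22 normalized counts, and WT control embryo 2, at 3.95, lay above 3 of them. The groups were not told apart (two-sided exact permutation test, p = 0.143), and the size of the difference depended on the pseudocount.

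Genes with the most similar profile over the 7 embryos were found by Pearson's r on log2(normalized count + 1), as a description. For ATP1B3 in the GATA3 table these were CLDN6, a claudin of tight junctions (r = 0.974), and ATP6V0C, a subunit of the vacuolar proton pump (r = 0.973). For the CDX2 table they were HINT2 (r = 0.996), a mitochondrial hydrolase, and ELOVL1 (r = 0.991), an enzyme that lengthens fatty acids. For AQP3 they were TRIP12 and HARS1 in the first table (r = 0.984 and 0.961), and WDR83 and ICAM1 in the second (r = 0.960 and 0.934). AQP11 was most like SINHCAF (r = 0.960) and IAH1 (r = 0.953), and ATP1B2 most like RAB3GAP1 (r = 0.955) and NOP14 (r = 0.954), both in the CDX2 table. No partner of ATP1B3 or AQP3 was the same in both tables. Among themselves the genes were less alike, with r between ATP1B3 and AQP3 of 0.517 in the first table and -0.172 in the second. These are the highest of 4222 and 5639 candidates over 7 embryos, and the transcripts of a library have its depth and TE content in common, which differed between embryos.

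The other genes of ion and water transport, 72 on the lists, were also examined. Of these 41 were matched in the GATA3 table and 27 tested, of which 1 was called higher and 0 lower, beside 2.01% of all transcripts. Of the 27, 18 were higher and 9 lower, with a median log2 difference of 0.26 where that of all transcripts tested was 0.11. A total of 57 were matched in the CDX2 table and 34 tested, and 0 were called, with 10 higher and 24 lower and a median of -0.26 where that of all transcripts was -0.15. With limma, an unadjusted p under 0.05 was seen for 3 of the 27 where 965 of all 4271 transcripts had one, and for 0 of the 34 where 187 of all 5719 did.

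The gene called was TFAP2C, a transcription factor of the TE that is listed among the regulators of pump and water channel genes. Its levels were 71.0, 40.0 and 52.8 normalized counts in the controls and 97.0, 109, 123 and 112 in GATA3 KO embryos 3 to 6. All 4 KO embryos lay above the controls, and TFAP2C rose by 1.03 ± 0.25 on the log2 scale (limma, adjusted p = 0.044). The adjusted p by limma stood just inside the threshold. The call was lost when any of WT control embryos 2 and 3 or KO embryos 3, 4 and 5 was left out (adjusted p up to 0.180). It was also lost with quantile normalization (0.058). The log2 difference stayed between 0.83 and 1.09 in those fits, and was 1.06 with a Y-linked term. TFAP2C in the CDX2 table had 103, 48.2 and 72.2 normalized counts in the controls and 77.2, 32.6, 119 and 144 in the KO embryos (limma, adjusted p = 0.954).

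Of the other subunits on the lists ATP1A4, ATP4A, ATP1B4 and ATP4B were rare, with at most 20 reads in any embryo. ATP1A4, an alpha subunit found in sperm, had 1 to 9 reads in the controls of the GATA3 table and 0 to 3 in the KO embryos (two-sided exact permutation test, p = 0.057). ATP4A, the catalytic subunit of the gastric proton pump, had 1 to 11 and 0 to 2 (p = 0.086, same exact test). In both the KO embryos overlapped WT control embryo 1. In the other knockout the groups overlapped as well, with a log2 difference of 0.079 for ATP4A (limma, adjusted p = 0.992) and with ATP1A4 at 1 to 14 reads in the controls and 5 to 9 in the KO embryos. ATP1B4 had 0 to 6 reads in the controls and 3 to 14 in CDX2 KO embryos, and ATP4B 2 to 9 and 0 to 4.

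FXYD proteins are small membrane partners that tune the pump. FXYD6 had 7.10, 9.73 and 18.7 normalized counts in the controls and 0, 9.05, 7.15 and 3.28 in GATA3 KO embryos (log2 difference -1.47; two-sided exact permutation test, p = 0.2). In the CDX2 table it differed by -0.23 (limma, adjusted p = 0.937). FXYD5 had 1, 4 and 0 reads in the controls and 7, 2, 4 and 6 in CDX2 KO embryos, and FXYD1 had 2 to 4 and 0 to 6. In normalized counts all 4 CDX2 KO embryos lay above the controls for FXYD5 (two-sided exact permutation test, lowest possible p = 0.029), at reads near the floor. Of all transcripts tested, which had a mean of at least 10, 5.88% did not overlap. FXYD5 was below that level, where no such share was computed.

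Of the other aquaporins 6 of 10 were matched, in the CDX2 table alone. MIP, the aquaporin of the lens, had 0 or 1 read in the controls and 1 to 10 in the KO embryos (two-sided exact permutation test, p = 0.057). AQP1 had 1 to 10 reads in the controls and 2 to 7 in the KO embryos, and AQP5 had 2 to 6 and 0 to 7. AQP2, AQP8 and AQP9 had at most 3 reads in any control and at most 6 in any KO embryo. The means of all 6 were under 10 normalized counts in the table, so they were not part of the test across all transcripts.

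Sodium enters the TE from the outside through exchangers and channels, and 8 of 14 listed genes of sodium entry were matched in the GATA3 table. The 3 tested were all lower in KO embryos and none was called, with a median of -0.55 beside 0.11 for all transcripts. The genes named next were picked out after their values were seen. NHERF1, the scaffold that holds the exchanger NHE3 at the membrane, had 364, 239 and 303 normalized counts in the controls and 197, 194, 230 and 195 in the KO embryos. All 4 KO embryos lay below the controls, with a difference of -0.55 ± 0.23 on the log2 scale (limma, unadjusted p = 0.027, adjusted p = 0.172). SLC9A3, which encodes NHE3, had 13.4, 13.0 and 9.33 in the controls and 4.34, 4.31, 5.96 and 3.28 in the KO embryos. These values, of 3 to 17 reads, did not overlap either (log2 difference -1.24; two-sided exact permutation test, lowest possible p = 0.029). Non-overlap was seen for 18.9% of all transcripts tested in that table, which had a mean of at least 10. SLC9A3 was below that level, where no such share was computed. Cumulus cells surround the oocyte, and the study stripped them from zygotes and took off the zona pellucida before lysis. Of their 9 markers 3 were matched and 1 tested, COL1A2, which was not called (limma, adjusted p = 0.129). The 3 summed to 23.3 to 33.9 normalized counts in the controls and 8.68 to 12.1 in the KO embryos, without overlap. All 4 KO embryos lay below the controls for COL1A2 and for FSHR, which had 1 to 5 reads. For VCAN the groups overlapped. Of the 5 primitive endoderm markers tested 4 were lower in GATA3 KO embryos, 1 of them called, with a median of -1.08, and of the 3 epiblast or inner cell mass markers tested 2 were lower and 0 called, with a median of -0.95. Of the 8 TE markers tested 5 were lower, with a median of -0.43. The TE markers called lower were GATA3, the edited gene, and GATA2, and TFAP2C was called higher. The primitive endoderm marker called was APOA1. Of all transcripts tested 2.01% were called, a share that moved widely when an embryo was left out. The summed levels of these 3 lists overlapped between the groups, at 817 to 999 in the controls and 560.0 to 1290 in the KO embryos for primitive endoderm, at 124 to 157 and 62.2 to 179.8 for epiblast or inner cell mass, and at 3606 to 8183 and 3966 to 5648 for TE. The part of these markers in the values of sodium entry was not tested. There were 12 of 14 matched in the CDX2 table, the groups overlapped for NHERF1 (-0.65; limma, adjusted p = 0.900) and SLC9A3 (-0.39; limma, adjusted p = 0.917), and none of the 5 tested was called.

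The remaining lists held no further calls. Of the genes that glycosylate, fold and carry beta subunits in the ER, 8 of 9 were tested in each table, 6 of them higher in GATA3 KO embryos (median 0.33) and 0 higher in CDX2 KO embryos (median -0.36). STT3B, a catalytic subunit of the oligosaccharyltransferase, was the farthest of these in GATA3 KO embryos at 0.70 ± 0.30 (limma, unadjusted p = 0.032, adjusted p = 0.184). Of 12 tight junction and adhesion genes 9 were tested in GATA3 KO embryos, with a median of 0.17, and 10 in CDX2 KO embryos, with a median of -0.20. Among the genes of glycerol use 1 was tested in the first table and 2 in the second. Medians of all transcripts moved with the scaling, from 0.11 to 0.0029 with quantile normalization in the GATA3 table and from -0.15 to -0.036 in the CDX2 table, so the list medians are to be read against those shifts.

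**Figure D4:**
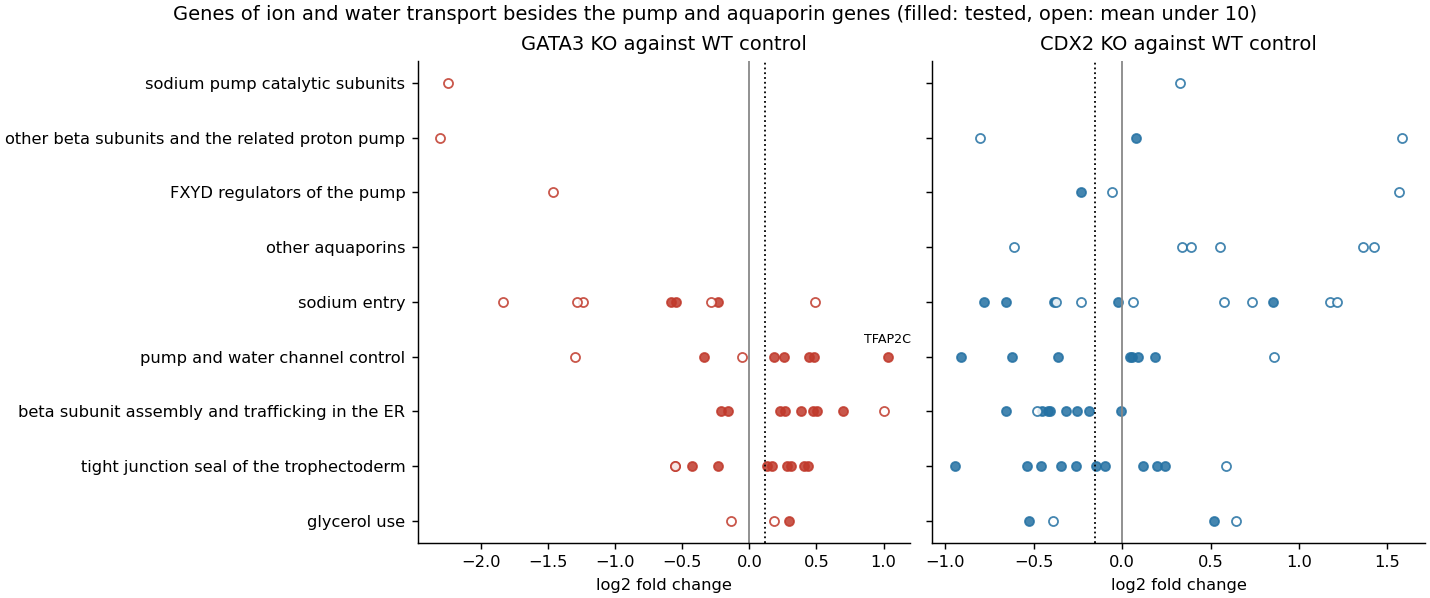
Log2 fold change of KO against WT control embryos for the genes of each transport list, filled where tested and open where the mean was under 10 normalized counts; the solid line marks 0 and the dotted line the median of all transcripts tested (0.11 and -0.15). TFAP2C, at 1.03, is the gene called in GATA3 KO embryos, and none is called in CDX2 KO embryos.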

How the data were processed

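Single blastocysts were sequenced by Smart-seq2. Per the labels and the study's methods, the authors used Trimmomatic to trim, HISAT2 to map (ARS-UCD1.2), featureCounts to count and DESeq2 to normalize. The deposited signal is a read count over its library's size factor, and whole reads were recovered for 100% of values (tolerance 0.1). The authors' own fold changes and p-values were not used. WT control columns were matched by number, KO columns to their group alone. The controls held 1.78 to 1.85 times as many reads in the CDX2 table as in the GATA3 table over 8567 shared transcripts, for which no reason is given in the sources used here.

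Symbols came from RefSeq (ARS-UCD2.0 gene table, 98.6% of transcripts named); no coordinates, lengths or sequences are given. Transcripts with a mean of at least 10 were tested by limma 3.58.1 (R 4.3.3, trended prior) on log2(normalized count + 1), a scale that understates changes of low transcripts. Others were compared by exact permutation over 35 splits (Python 3.11.15, numpy 2.4.6, pandas 2.3.3, scipy 1.17.1). Named were the pump and aquaporin genes, pathway genes that were called, other pump subunits, FXYD genes and other aquaporins, and the 2 transcripts most like each tested gene. Members and lists were chosen with earlier results of these data known. Alternatives were pseudocounts of 0.1 and 5, no filter or a mean of 100, other scalings and fold thresholds, edgeR 4.0.16, DESeq2 1.42.0, and leaving out each embryo. The Y-linked term was added after seeing the data. Some genes of the pathway are not reported here. The fits were tested on simulated data.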

Additional observations from a re-analysis of the deposited data

How the results depend on the processing

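The count of pump and aquaporin genes called was 0 under each of 18 alternatives in both knockouts, and so was the count of other transport genes called in CDX2 KO embryos. In GATA3 KO embryos the 1 such gene called became 0 with a mean of at least 100, which leaves TFAP2C (mean 86.4) out of the test. It also became 0 with quantile normalization. With an embryo left out the count ranged from 0 to 2. It was 2 without WT control embryo 1 (TFAP2C and STT3B) and 0 without WT control embryo 2 or 3 or KO embryo 3, 4 or 5. Apart from the mean of at least 100, the cause was not tested. Signs of values that were never called also turned (ranges are those with an embryo left out). ATP1B2 in GATA3 KO embryos was 0.054 without KO embryo 6 and 0.16 without WT control embryo 3 (range -0.48 to 0.16), and ATP1B3 was -0.12 without WT control embryo 3 (range -0.12 to 0.84). ATP1B2 in CDX2 KO embryos was 0.12 by DESeq2, 0.097 by edgeR, 0.080 with median-ratio rescaling, and 0.23 and 0.086 without KO embryos 2 and 5 (range -0.31 to 0.23 over 5 of the 7 embryos, since its mean fell under 10 without KO embryo 3 or WT control embryo 3), with -0.42 under the Y-linked term as its lowest value. AQP11 in CDX2 KO embryos was 0.027 with the Y-linked term. No paired analysis was possible because the KO columns carry numbers of their own that could be matched to a group but not to the labelled replicates. Depth limits ATP1B2, AQP7 and AQP11, which rest on 0 to 41 reads per embryo.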
